A study of Mus musculus with 9 samples.

Results

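The aminoacyl-tRNA synthetase genes encode the enzymes that join each amino acid to its transfer RNA. They were taken by gene symbol, through a pattern that covers the synthetase names, and 34 such genes were measured by a probe set with a single gene symbol, of 19938 genes in all. Of these, 16 encode cytosolic enzymes, 16 mitochondrial enzymes, and 2, Gars (glycine) and Kars (lysine), supply both compartments from one gene. Aars, whose probe set also carries another gene's symbol, was not analysed here. RNA of 9 samples was hybridised to 1 array each. The osteosarcoma group held 3 lines, 1 array per line, grown from tumours of adult C57BL/6 mice of genotype Osx-Cre p53fl/fl Rbfl/fl, in which an osteoblast-lineage promoter drives Cre. Lines 1 and 3 came from females and line 2 from a male, all are labelled fibroblastic, and they were used below passage 8 while subconfluent. Osteoblasts were 3 cultures of the mouse bone marrow stromal line Kusa4b10 kept for 21 days in medium with ascorbate, and pre-osteoblasts were 3 undifferentiated cultures of the same line. Kusa4b10 cultures are called independent samples in the labels but share 1 line, and their spread is that between cultures. In the osteosarcoma comparisons, tumour state and origin of the line cannot be told apart, nor differentiation from time in culture and medium between the Kusa4b10 states.

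Synthetases consume ATP to charge transfer RNA, and an uncharged transfer RNA is the signal that activates the kinase Gcn2, encoded by Eif2ak4. Gcn2 phosphorylates the initiation factor eIF2, which lowers general translation and raises translation of the transcription factor Atf4. Atf4 in turn is known to activate genes for amino acid synthesis, amino acid import and many cytosolic synthetases. Mitochondria use a separate set of synthetases, encoded in the nucleus and imported, to translate the few proteins of their own genome. In cytosol, several synthetases are held in a multisynthetase complex by the scaffold proteins Aimp1, Aimp2 and Eef1e1.

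Values are log2 levels, and a difference of 1 is a doubling. A probe set reads each gene with its own efficiency, so levels are compared between groups for one gene and never between genes. Differences carry the standard error of a fit over all 9 arrays, and a gene was called where its p, adjusted over all 19938 genes, was below 0.05. Array medians over probe sets lay between 7.43 and 7.56. The 9 osteoblast markers averaged 9.28 over the lines, 11.81 over osteoblast arrays and 8.81 over pre-osteoblast arrays. The 7 adipocyte markers averaged 8.06, 11.77 and 8.69 in the same order of groups, so the osteoblast cultures carried both kinds of transcript. The 11 markers of dividing cells averaged 11.59 over the lines, 9.16 over osteoblast arrays and 11.45 over pre-osteoblast arrays, with osteoblast replicate 2 at 9.93 against 8.86 and 8.68 in the other osteoblast cultures. Mean marker levels over all arrays were 6.62 to 6.79 for blood cells, 6.35 to 7.09 for endothelium (highest in line 1) and 7.01 to 7.17 for epithelium. Among the endothelial genes, Tek was at 9.02 in line 1, 7.15 in line 3 and 6.06 to 6.3 on the other arrays. Of these blood cell, endothelial and epithelial markers, 1 was called in any comparison, Cd14 of the blood cell list. Cd14 was lower in osteoblasts than in both other groups.

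Of the 34 synthetase genes, 16 differed between the 3 groups in the moderated F test, 11 of 18 cytosolic or dual enzymes and 5 of 16 mitochondrial ones. Over all genes the F test called 38.4%. The same 16 genes were the ones called in at least 1 pairwise comparison, and 18 were called in none. Those 18 are the cytosolic Cars (cysteine), Farsa (phenylalanine, alpha subunit), Mars1 (methionine), Qars (glutamine), Rars (arginine), Vars (valine) and Yars (tyrosine), and the mitochondrial Aars2 (alanine), Cars2 (cysteine), Fars2 (phenylalanine), Hars2 (histidine), Iars2 (isoleucine), Mars2 (methionine), Pars2 (proline), Rars2 (arginine), Tars2 (threonine), Wars2 (tryptophan) and Yars2 (tyrosine). No synthetase differed by as much as 2-fold between any 2 groups at a called difference, while 501 genes were at least that much higher and 742 lower in osteoblasts than in pre-osteoblasts. The map of deviations shows 3 kinds of pattern. Eprs, Lars, Iars and Gars were lowest in pre-osteoblasts, with no called difference between osteosarcoma and osteoblasts. Wars, Sars and Nars were higher in osteoblasts than in either other group. Several mitochondrial enzymes were either highest in pre-osteoblasts or lowest in the osteosarcoma lines.

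**Figure D1:**
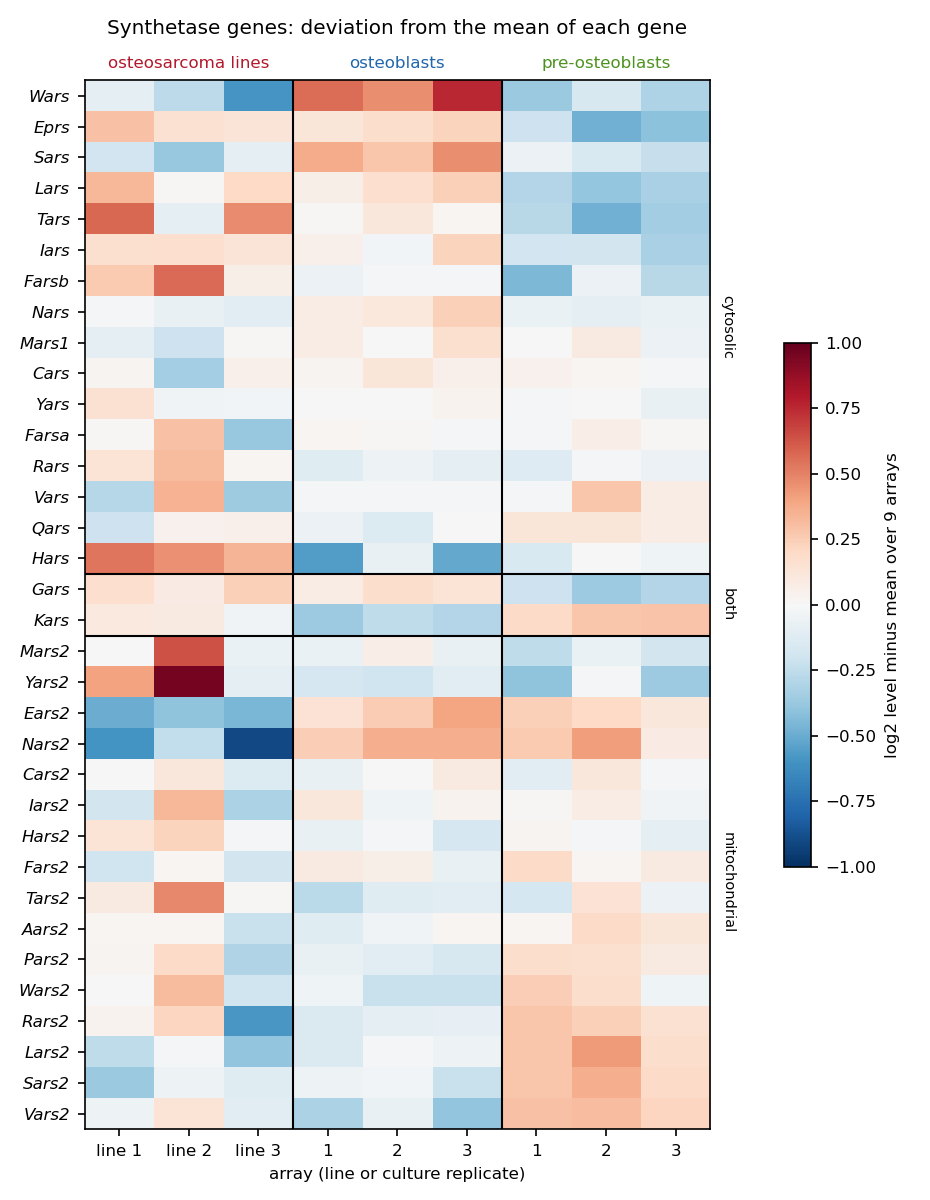
Each row is a synthetase gene and each column an array, 3 osteosarcoma lines, 3 osteoblast cultures and 3 pre-osteoblast cultures. Colour gives the log2 level minus the gene's mean over the 9 arrays, and black lines part the groups and the cytosolic, dual and mitochondrial enzymes. Wars and Sars are red in the osteoblast columns, Eprs, Lars and Iars are blue in the pre-osteoblast columns, and Ears2 and Nars2 are blue in all 3 lines.

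Promoter windows are shown for the enzymes that carry the letters known to be bound by Atf4 with C/EBP proteins. RefSeq windows of build GRCm38.p6, from 250 bases before to 50 after the start site, were matched for 25 of the 34 genes, 11 cytosolic or dual and 14 mitochondrial. The motif TGATGNAA was searched on both strands. It occurred in 4 of the 11 cytosolic or dual windows (36.4%), in 0 of the 14 mitochondrial windows and in 3.97% of all 32851 windows used. The 4 genes were Gars at chr6:55037751-55038050 (+ strand), Iars at chr13:49681880-49682179 (+ strand), Tars at chr15:11399609-11399908 (- strand) and Yars at chr4:129189653-129189952 (+ strand). The motif begins at position -30 from the start site in Gars, 8 in Iars, -15 in Tars and 4 in Yars, on the gene's own strand in Yars and on the opposite strand in the others. In the sequences the motif is in capitals.
Gars: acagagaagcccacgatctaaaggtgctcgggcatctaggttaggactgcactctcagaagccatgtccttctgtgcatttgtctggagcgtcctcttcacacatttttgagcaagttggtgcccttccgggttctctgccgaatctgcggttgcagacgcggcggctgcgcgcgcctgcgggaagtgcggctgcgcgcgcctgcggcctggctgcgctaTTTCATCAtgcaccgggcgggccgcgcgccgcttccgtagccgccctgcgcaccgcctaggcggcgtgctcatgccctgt
Iars: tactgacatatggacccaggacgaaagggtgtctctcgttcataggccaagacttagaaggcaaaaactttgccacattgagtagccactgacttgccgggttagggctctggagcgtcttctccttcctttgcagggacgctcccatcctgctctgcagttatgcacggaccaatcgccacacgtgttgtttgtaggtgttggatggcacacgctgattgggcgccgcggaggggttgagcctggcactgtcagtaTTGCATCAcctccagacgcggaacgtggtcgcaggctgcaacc
Tars: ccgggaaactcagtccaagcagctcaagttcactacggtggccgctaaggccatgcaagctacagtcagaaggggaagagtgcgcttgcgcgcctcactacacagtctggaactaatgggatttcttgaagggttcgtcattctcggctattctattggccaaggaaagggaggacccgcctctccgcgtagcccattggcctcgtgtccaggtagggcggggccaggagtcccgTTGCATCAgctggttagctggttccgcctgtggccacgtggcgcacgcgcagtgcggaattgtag
Yars: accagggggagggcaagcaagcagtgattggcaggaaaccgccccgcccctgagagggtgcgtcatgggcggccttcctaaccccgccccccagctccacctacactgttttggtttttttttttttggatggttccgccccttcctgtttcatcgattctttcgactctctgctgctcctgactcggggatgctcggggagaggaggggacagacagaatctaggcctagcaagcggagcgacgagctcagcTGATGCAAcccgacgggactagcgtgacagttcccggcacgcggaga
The letters CACGTG, an E-box bound by Myc family factors, occurred in 3 of 11 cytosolic or dual windows (Farsb, Iars and Tars), 1 of 14 mitochondrial windows (Ears2) and 7.15% of all windows used. The palindromic motif of Nrf1, a regulator of mitochondrial biogenesis, occurred in 3 of 11 cytosolic or dual windows, 2 of 14 mitochondrial windows and 4.60% of all windows used. The TGATGNAA matches overlapped neither of these. A match is a description of letters and not of binding. Of the 4 genes with TGATGNAA, Gars and Iars rose in osteoblasts, while Tars (0.42 ± 0.16) and Yars (0.04 ± 0.06) did not pass there. Eprs and Sars, whose windows hold no such match, rose as well. Wars, Lars and Nars also rose, and no window was used for them.

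The comparison of osteoblasts with pre-osteoblasts asks how the synthetases differ between 21-day differentiated cultures and undifferentiated ones. All called cytosolic enzymes rose, all called mitochondrial enzymes fell, and of the dual pair Gars rose and Kars fell. Of 18 cytosolic or dual enzymes, 7 rose (38.9%) and 1 fell, and of 16 mitochondrial enzymes, 3 fell (18.8%) and 0 rose. At an unadjusted p of limma under 0.05, 0 mitochondrial enzymes were higher here as well. Over all genes, 10.3% were higher and 15.8% lower, so the mitochondrial share that fell was near that of all genes. The median difference was 0.14 over the 16 cytosolic genes, -0.10 over the 16 mitochondrial genes and 0.00 over all genes. The 3 mitochondrial falls became 1 when osteoblast culture 3 or pre-osteoblast culture 1 or 2 was left out, and 5 without osteosarcoma line 3.

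Wars, which charges tryptophan, had the largest difference among the members here. It was at 11.67, 11.57 and 11.86 in osteoblasts, against 10.74, 10.95 and 10.80 in pre-osteoblasts, a rise of 0.87 ± 0.13 (1.83-fold, adjusted p = 0.00206). The ranges of the 2 states did not overlap. Such separation was common, with 3817 of all 19938 genes above without overlap in this comparison. Sars, the serine enzyme, was at 12.62, 12.53 and 12.72 in osteoblasts, against 12.19, 12.10 and 12.02 in pre-osteoblasts, and rose by 0.52 ± 0.09 (adjusted p = 0.00333). Eprs, one protein that charges both glutamate and proline and sits in the multisynthetase complex, was at 12.11, 12.16 and 12.21 in osteoblasts, against 11.78, 11.51 and 11.58 in pre-osteoblasts. Its rise was 0.54 ± 0.08 (adjusted p = 0.00185), again with no overlap.

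Lars, the leucine enzyme and also a sensor of leucine for mTORC1 in mammalian cells, was at 11.39, 11.50 and 11.57 in osteoblasts, against 11.04, 10.95 and 11.01 in pre-osteoblasts. The rise was 0.48 ± 0.09 (adjusted p = 0.00443) and the groups did not overlap. Gars was at 12.18, 12.28 and 12.24 in osteoblasts, against 11.90, 11.74 and 11.81 in pre-osteoblasts, a rise of 0.42 ± 0.06 (adjusted p = 0.00210). Iars, the isoleucine enzyme, was at 12.64, 12.56 and 12.81 in osteoblasts, against 12.40, 12.41 and 12.27 in pre-osteoblasts. Iars rose by 0.31 ± 0.07 (adjusted p = 0.0165), a call lost without pre-osteoblast replicate 3 (adjusted p = 0.0608). Its second probe set ran the same way, with means of 12.39 in osteoblasts and 11.97 in pre-osteoblasts. The smallest rise was that of Nars, the asparagine enzyme, at means of 12.51 in osteoblasts and 12.30 in pre-osteoblasts. It was 0.21 ± 0.06 (adjusted p = 0.0279), and was lost without osteoblast replicate 3 or any 1 pre-osteoblast culture and with arrays centred on their medians.

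Kars, the lysine enzyme of both compartments and a member of the complex, went the other way. It was at 10.52, 10.63 and 10.59 in osteoblasts, against 11.07, 11.16 and 11.17 in pre-osteoblasts, 1.47-fold lower in osteoblasts (-0.55 ± 0.06, adjusted p = 4.36e-04). Its groups did not overlap. Gars and Kars, which both serve cytosol and mitochondria, were thus called in opposite directions. Hars, the histidine enzyme, was at 9.65, 10.14 and 9.70 in osteoblasts, against 10.06, 10.22 and 10.17 in pre-osteoblasts, and did not pass (-0.32 ± 0.13, adjusted p = 0.103). Without osteoblast replicate 2, the culture with the higher marker level of dividing cells, the difference of Hars was called (-0.47, adjusted p = 0.00507). Tars, the threonine enzyme, was at 10.69, 10.79 and 10.70 in osteoblasts, against 10.40, 10.20 and 10.33 in pre-osteoblasts. Its groups did not overlap, but 0.42 ± 0.16 missed the threshold (adjusted p = 0.0939), and passed when the lines were left out of the fit (adjusted p = 0.00474) or without osteosarcoma line 2 (adjusted p = 0.00329).

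Among mitochondrial enzymes, Vars2, the valine enzyme, was at 8.85, 9.09 and 8.77 in osteoblasts, against 9.46, 9.47 and 9.38 in pre-osteoblasts, and fell (-0.53 ± 0.10, adjusted p = 0.00467). Sars2, for serine, was at 8.56, 8.58 and 8.39 in osteoblasts, against 8.89, 8.97 and 8.80 in pre-osteoblasts (-0.38 ± 0.10, adjusted p = 0.0211). Lars2, for leucine, was at 8.02, 8.15 and 8.11 in osteoblasts, against 8.44, 8.59 and 8.34 in pre-osteoblasts (-0.36 ± 0.11, adjusted p = 0.0350). In all of these the osteoblast cultures lay below the pre-osteoblast cultures without overlap. The call of Sars2 was lost when osteoblast culture 3 or pre-osteoblast culture 1 or 2 was left out, and that of Lars2 when line 1, any 1 osteoblast culture or pre-osteoblast culture 1 or 2 was. Of the 13 mitochondrial genes that did not pass, 3 also lay below without overlap, namely Aars2 (alanine), Pars2 (proline) and Rars2 (arginine), at -0.16 ± 0.08, -0.26 ± 0.11 and -0.33 ± 0.18. The rest ran between -0.29 (Wars2) and 0.14 (Mars2). Such separation was common, with 5005 of all 19938 genes below without overlap in this comparison.

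For 2 amino acids the cytosolic and the mitochondrial enzyme were called in opposite directions, serine (Sars 0.52, Sars2 -0.38) and leucine (Lars 0.48, Lars2 -0.36). In 16 pairings of a cytosolic gene with the mitochondrial gene for the same amino acid, 6 had 1 of the genes called and 8 had none. Eprs was paired with both Ears2 and Pars2, and Fars2 with both Farsa and Farsb, so the pairings share genes. No cytosolic gene was called lower and no mitochondrial gene higher, so a pair with both genes called could only be called in opposite directions. Tryptophan was an unequal pair, with Wars 0.87 higher and Wars2 at -0.29 ± 0.14, not called (adjusted p = 0.167). Tyrosine, methionine and cysteine enzymes stood close to 0 in cytosol, with Yars at 0.04, Mars1 at 0.06 and Cars at 0.05.

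**Figure D2:**
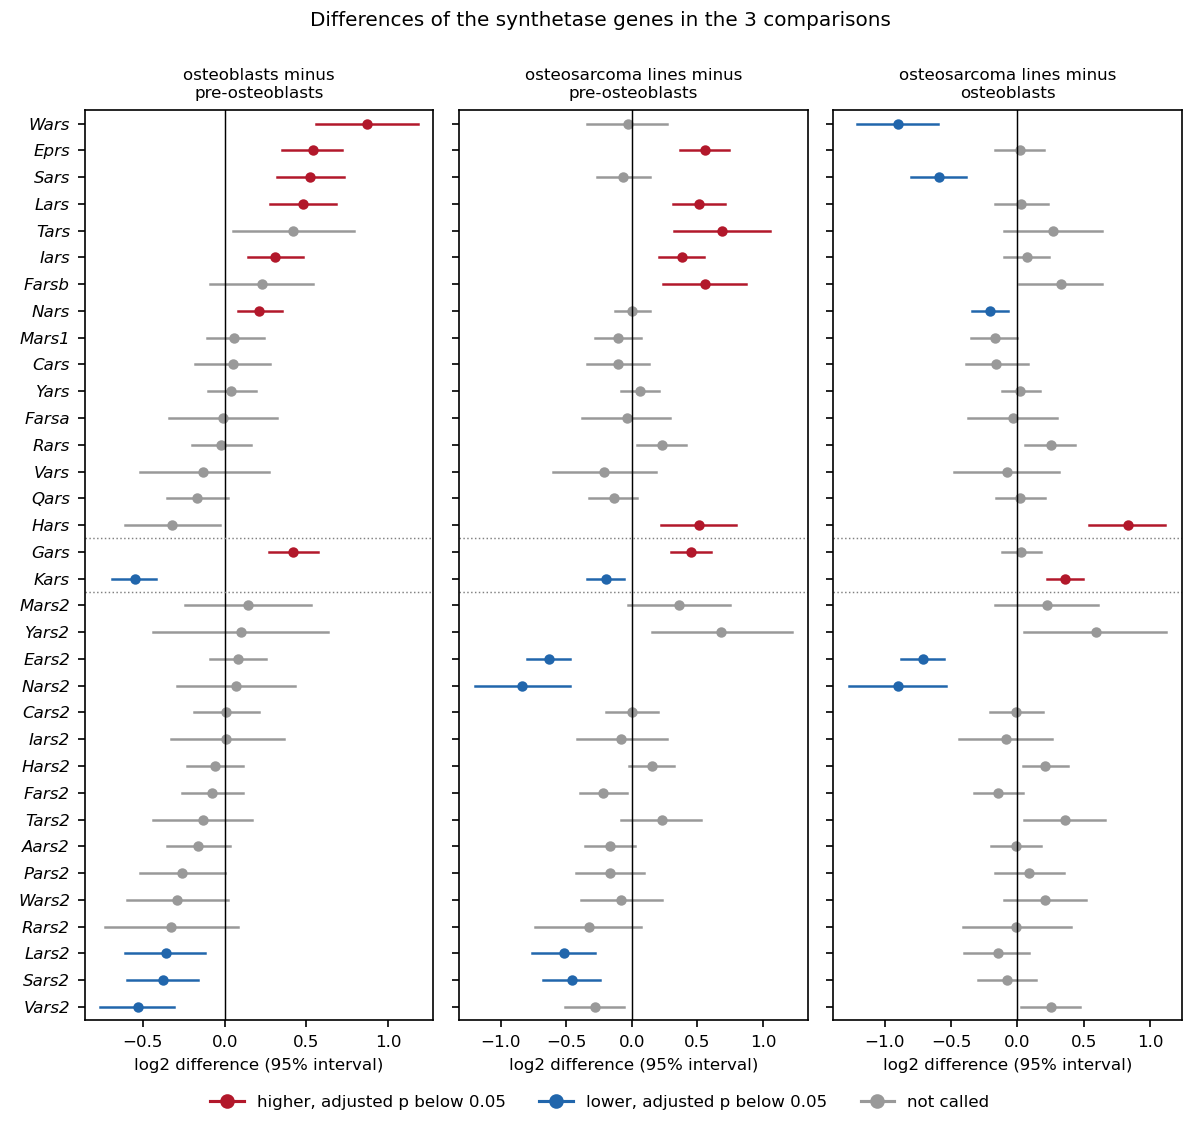
Points give each gene's log2 difference, first-named minus second-named group of each panel, and bars the 95% interval of the fit. Red and blue points passed the test as higher and lower. In the left panel red points lie among the cytosolic and dual genes at the top, and the 3 blue mitochondrial points are Lars2, Sars2 and Vars2.

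Averaged over the 16 cytosolic genes, the level was 11.34, 11.38 and 11.42 in osteoblasts, against 11.18, 11.22 and 11.16 in pre-osteoblasts. Over the 16 mitochondrial genes it was 8.98, 9.03 and 8.99 in osteoblasts, against 9.13, 9.21 and 9.07 in pre-osteoblasts. The distance between these averages is set in part by probe efficiency, and only its difference between arrays can be read. It was 2.36, 2.35 and 2.42 in osteoblasts, against 2.05, 2.01 and 2.09 in pre-osteoblasts, a mean shift of 0.33. It was 2.46, 2.14 and 2.52 in osteosarcoma lines 1, 2 and 3, a mean shift of 0.32 against pre-osteoblasts and of -0.01 against osteoblasts. The osteosarcoma and osteoblast ranges overlapped, while all 6 of their arrays lay above all pre-osteoblast arrays.

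**Figure D3:**
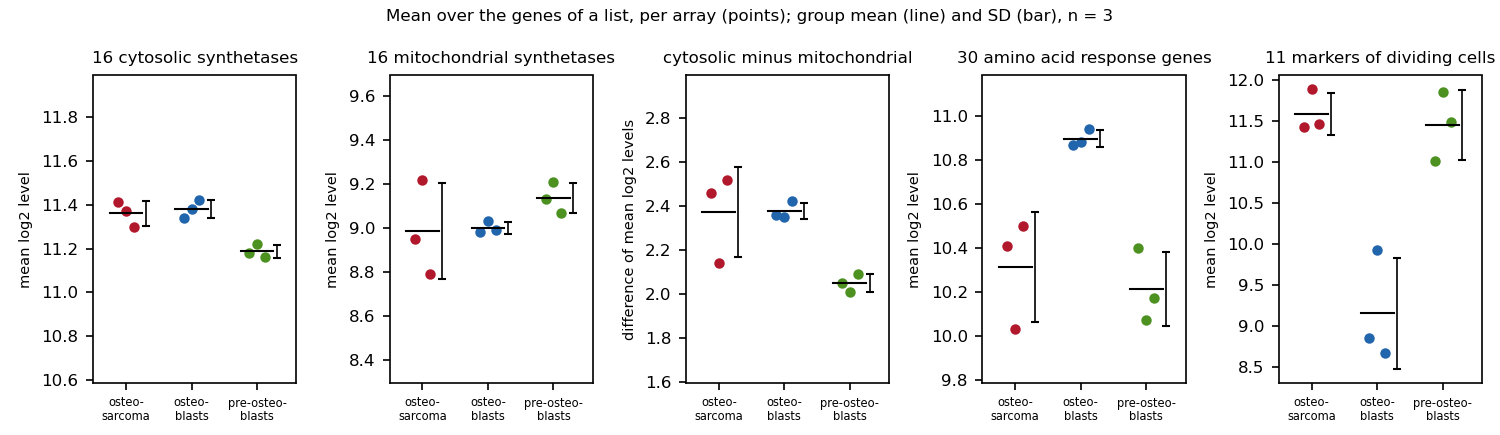
Each panel gives the mean log2 level over a list of genes in every array (points), with the group mean (line) and SD (bar, n = 3), for cytosolic and mitochondrial synthetases, their difference, 30 amino acid response genes and 11 markers of dividing cells. The cytosolic minus mitochondrial distance lies at 2.01 to 2.09 in pre-osteoblasts and at 2.14 or more elsewhere, whereas the amino acid response is high in osteoblasts and the dividing-cell markers are low there.

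The amino acid response genes were a list of 30 genes known as Atf4 targets or parts of its pathway. Of these, 15 (50%, against 10.3% of all genes) rose in osteoblasts, 1 fell and 14 were not called, with a median of 0.42. Their mean level was 10.87, 10.88 and 10.94 in osteoblasts, against 10.40, 10.07 and 10.17 in pre-osteoblasts. The stress protein gene Nupr1 was 2.57 ± 0.28 higher and the lipoprotein receptor gene Vldlr 2.54 ± 0.49 higher. Ddit3, a transcription factor of the stress response, rose by 2.47 ± 0.25 and Slc7a11, the cystine importer, by 2.25 ± 0.31. Chac1, which degrades glutathione, was not called at 0.71 ± 0.26 (adjusted p = 0.0859). Among other uncalled genes, Asns (0.00 ± 0.07) and Sesn2 (0.01 ± 0.23) lay near 0, and Slc38a2 (-0.43 ± 0.14) and Pck2 (-0.63 ± 0.24) were below it. Atf4 itself, named after its values were seen, was 0.54 ± 0.12 higher (adjusted p = 0.0103). Its mRNA is no measure of its translation. The 1 gene of the list that fell was Psat1, of serine synthesis (-0.44 ± 0.07), while Phgdh, of the same pathway, rose by 0.41 ± 0.09.

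Xpot, which exports transfer RNA from the nucleus, was at 12.22, 12.27 and 12.36 in osteoblasts, against 11.51, 11.28 and 11.35 in pre-osteoblasts, a rise of 0.90 ± 0.07 (adjusted p = 9.20e-05). Elac2, the nuclease that trims the 3′ end of transfer RNA, fell by 0.48 and Trnt1, which adds the terminal CCA, was at 0.15 ± 0.08 and did not pass. These were the only 2 of 8 genes of transfer RNA editing, processing and export that were called. Of the 3 complex scaffolds, Eef1e1 was 0.47 ± 0.13 higher, Aimp1 was lower (-0.32 ± 0.06), and Aimp2 was at -0.30 ± 0.16, not called. Within the complex, Eprs, Lars and Iars rose, Kars fell, and Mars1, Qars and Rars did not pass.

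Of 9 mitochondrial translation factors, 1 fell, the release factor gene Mtrf1 (-0.20 ± 0.06), while the elongation factor gene Tufm was at -0.34 ± 0.11 (adjusted p = 0.0580). In a list of 77 mitochondrial ribosomal protein genes, 17 fell (22.1%, against 15.8% of all genes) and 4 rose (5.19%, against 10.3%). Of 61 cytosolic ribosomal protein genes, 17 rose (27.9%) and 3 fell (4.92%). For mitochondrial glutamine, which is made on its transfer RNA by an amidotransferase and not by a synthetase, the subunit gene Gatc rose (0.36 ± 0.07), while Gatb was at -0.54 ± 0.20 (adjusted p = 0.0837). Mtfmt, which formylates the initiator methionine in mitochondria, fell by 0.36. Of 6 cytosolic elongation factor genes, Eef1b2 (-0.20 ± 0.05) and Eef1d (-0.33 ± 0.08) fell, and Eef1a2 was at 0.18 ± 0.06, not called.

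The markers of dividing cells fell in osteoblasts, 11 of 11 with a median of -2.26, and 5 of 7 adipocyte markers rose. Both lists moved with the synthetase differences of this comparison, and their part in them was not tested. In bulk cultures, fewer cells of a type and less RNA per cell cannot be told apart.

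The comparison of osteosarcoma lines with pre-osteoblasts asks how the synthetases differ between tumour lines and undifferentiated cells. Of the 11 dividing-cell markers 0 were called here by limma (0 also at an unadjusted p under 0.05), with a median of 0.04 and 95% intervals that reached from -1.04 (Kif11) to 1.34 (Bub1). Of 18 cytosolic or dual synthetases, 7 (38.9%) were higher and 1 lower in osteosarcoma. Of 16 mitochondrial ones, 4 (25%) were lower and 0 higher (1 higher at an unadjusted p of limma under 0.05). Over all genes, 9.96% were higher and 13.5% lower. The median difference was 0.03 over cytosolic, -0.17 over mitochondrial and -0.02 over all genes. This comparison and that of osteoblasts share the same pre-osteoblast arrays, so the direction of a gene in both is not independent.

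Eprs was at 12.28, 12.14 and 12.12 in lines 1, 2 and 3, higher than in pre-osteoblasts by 0.56 ± 0.08 (adjusted p = 0.00189). Lars was at 11.67, 11.35 and 11.53 in the lines and higher by 0.51 ± 0.09 (adjusted p = 0.00388). Gars was at 12.27, 12.19 and 12.34, higher by 0.45 ± 0.06 (adjusted p = 0.00181). Iars was at 12.75, 12.76 and 12.72 in the lines, higher by 0.38 ± 0.07 (adjusted p = 0.00736). For each of these 4 genes all lines lay above all pre-osteoblast cultures, as did 3064 of all 19938 genes. Eprs, Lars, Gars and Iars are also the 4 synthetase genes called higher in osteoblasts and in osteosarcoma against the same pre-osteoblasts.

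The other 3 rises belonged to Tars, Farsb and Hars. Tars was at 11.25, 10.58 and 11.15 in lines 1, 2 and 3, higher than in pre-osteoblasts by 0.69 ± 0.16 (adjusted p = 0.0161), with line 2 nearest to the pre-osteoblast cultures. Farsb, the beta subunit of the phenylalanine enzyme, was at 11.09, 11.40 and 10.89 in the lines, against 10.38, 10.77 and 10.55 in pre-osteoblasts (0.56 ± 0.14, adjusted p = 0.0200). Its partner Farsa, the alpha subunit, was at 10.18, 10.46 and 9.79 in the lines, against 10.15, 10.24 and 10.18 in pre-osteoblasts, a difference of -0.04 ± 0.14 (adjusted p = 0.877). Farsa lay on both sides of the pre-osteoblast cultures and had, with Cars2, the narrowest range of group means. Hars was at 10.75, 10.67 and 10.55 in the lines, higher by 0.51 ± 0.13 (adjusted p = 0.0214). The calls of Farsb and Tars were lost when the third group was left out of the fit. Leaving out pre-osteoblast replicate 1 or 3 removed those of Farsb and Hars, leaving out line 1 that of Hars, and leaving out pre-osteoblast replicate 2 that of Tars.

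Kars was at 10.98, 10.97 and 10.85 in the lines and lower than in pre-osteoblasts by a small margin (-0.20 ± 0.06, adjusted p = 0.0469). This call was lost under most settings, among them without any 1 array (adjusted p = 0.0545 to 0.140). Wars and Sars, which were high in osteoblasts, did not pass here, with Wars at 11.02, 10.85 and 10.52 in the lines (-0.03 ± 0.13, adjusted p = 0.900) and Sars at 12.06, 11.87 and 12.16 (-0.07 ± 0.09, adjusted p = 0.654).

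The largest negative differences belonged to Nars2 and Ears2. Nars2, the asparagine enzyme, was at 8.20, 8.55 and 7.89 in lines 1, 2 and 3, against 9.06, 9.21 and 8.88 in pre-osteoblasts, 1.78-fold lower (-0.84 ± 0.16, adjusted p = 0.00648). Ears2, the glutamate enzyme, was at 7.84, 7.93 and 7.88 in the lines, against 8.57, 8.53 and 8.45 in pre-osteoblasts, 1.55-fold lower (-0.63 ± 0.07, adjusted p = 6.44e-04). The lines did not overlap the pre-osteoblast cultures in either gene, and 4025 of all 19938 genes lay below without overlap here. Lars2 was at 7.91, 8.15 and 7.77 in the lines (-0.52 ± 0.11, adjusted p = 0.00898), and Sars2 at 8.24, 8.56 and 8.49 (-0.46 ± 0.10, adjusted p = 0.0101). Both were thus below pre-osteoblasts in both other groups. Vars2 was at 9.11, 9.30 and 9.05 in the lines and did not pass (-0.28 ± 0.10, adjusted p = 0.0720). It was called without line 2 (-0.36, adjusted p = 0.0341) or without osteoblast replicate 2 (adjusted p = 0.0355).

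The pairs for leucine (Lars 0.51, Lars2 -0.52) and for glutamate (Eprs 0.56, Ears2 -0.63) were called in opposite directions. In the same 16 pairings, 7 had 1 of the genes called and 7 had none. Here too no cytosolic gene was called lower and no mitochondrial gene higher, so both could not be called in the same direction.

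**Figure D4:**
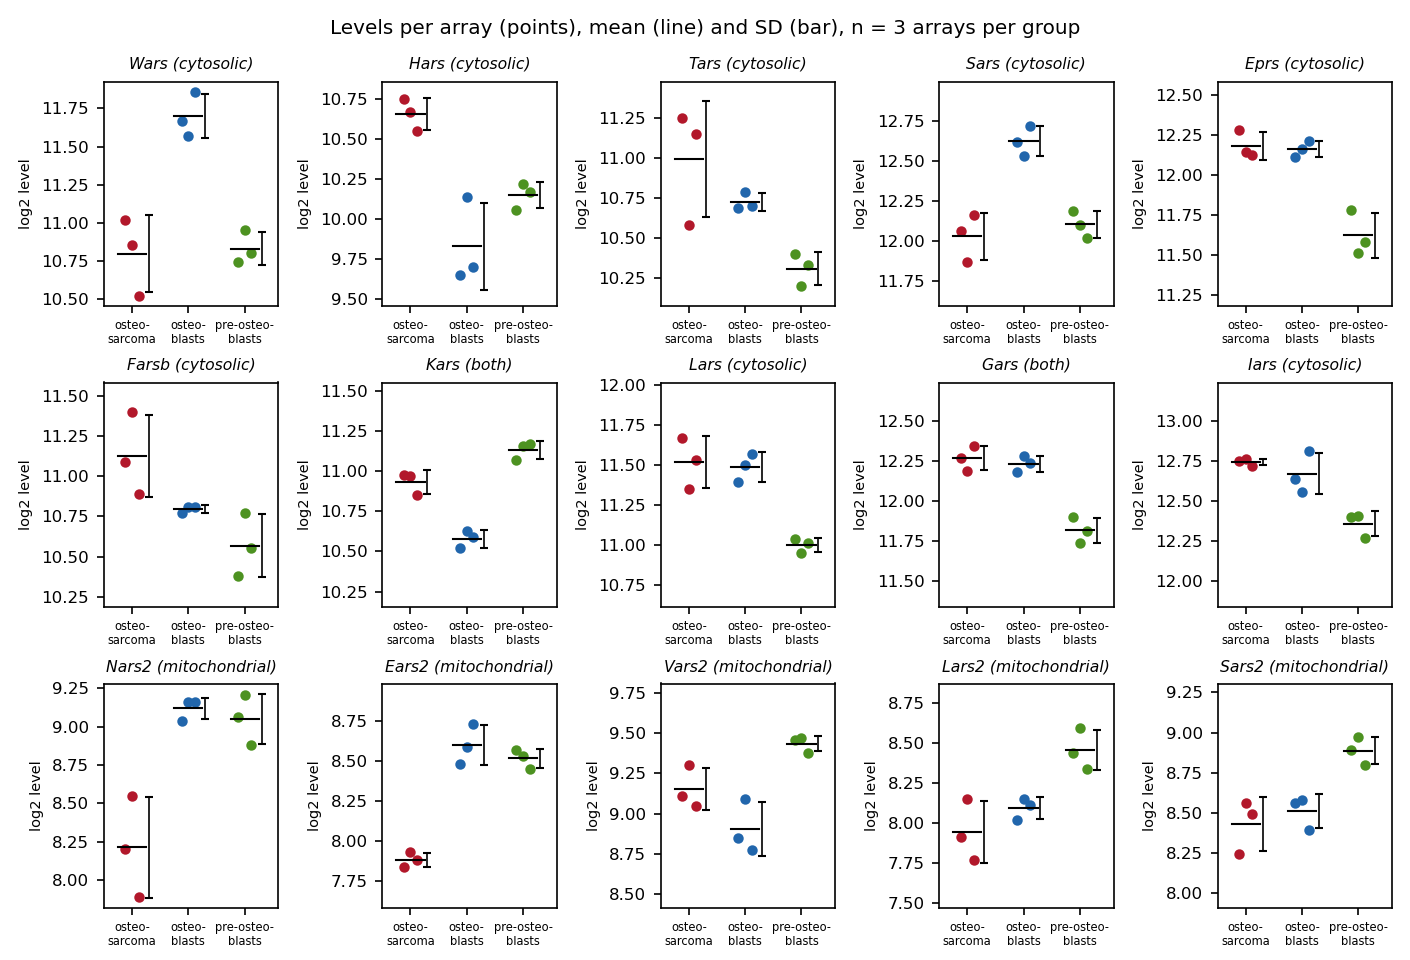
Log2 levels per array (points) of the 15 synthetase genes with the widest range of group means among the 16 called in the F test. The group mean (line) and SD (bar, n = 3) are given for osteosarcoma lines, osteoblasts and pre-osteoblasts, each axis with its own range. Yars2, with a range of group means of 0.68, was not called in the F test and is not shown. Ears2 lies at 7.84 to 7.93 in the lines and at 8.45 or more in all Kusa4b10 cultures, and Wars lies at 11.57 or more in osteoblasts and at 11.02 or less elsewhere.

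Of the 30 amino acid response genes, 7 (23.3%) were higher and 3 lower in the lines than in pre-osteoblasts, with a median of -0.07, beside the shares of all genes given above. Without line 3, 6 were lower. Slc7a11 (2.39 ± 0.31), Vldlr (2.25 ± 0.49) and Cth, which makes cysteine by transsulfuration (1.78 ± 0.28), were higher, and Sesn2, an inhibitor of mTORC1, was lower (-1.16 ± 0.23). Aldh1l2, a mitochondrial folate enzyme, was not called at -0.77 ± 0.31 (adjusted p = 0.123). Atf4 was at 10.40, 10.15 and 10.46 in lines 1, 2 and 3, against 10.45, 10.06 and 10.34 in pre-osteoblasts, a difference of 0.05 ± 0.12 (adjusted p = 0.815).

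Eif2ak4, which encodes the sensor of uncharged transfer RNA, was at 9.27, 9.61 and 8.92 in the lines, against 10.44, 10.38 and 10.30 in pre-osteoblasts, and was lower (-1.11 ± 0.16, adjusted p = 0.00218). In osteoblasts it averaged 9.83 and was lower than in pre-osteoblasts by a smaller difference (-0.54 ± 0.16, adjusted p = 0.0427). Eif2ak2, the kinase activated by double-stranded RNA, was lower than in pre-osteoblasts in the lines (-1.53 ± 0.28) and in osteoblasts (-1.49 ± 0.28). Eif2ak1, the haem-regulated kinase, was lower in both (-0.39 ± 0.06 and -0.34 ± 0.06 in lines and osteoblasts). Eif2ak3, the kinase of the endoplasmic reticulum, was at 0.08 ± 0.15 in the lines and 0.35 ± 0.15 in osteoblasts and did not pass.

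Among the scaffolds, Eef1e1 was at 11.05, 11.47 and 10.99 in the lines, against 10.19, 10.39 and 10.18 in pre-osteoblasts, a rise of 0.92 ± 0.13 (adjusted p = 0.00165), while Aimp2 (0.30 ± 0.16) did not pass. Of the genes of transfer RNA handling, Dtd2, a proofreading deacylase, was higher (0.53 ± 0.11), as was Xpot (0.23 ± 0.07), and Elac2 (-0.41 ± 0.11) and the deacylase Dtd1 (-0.41 ± 0.13) were lower. The amidotransferase gene Qrsl1 was lower in the lines (-0.67 ± 0.13), and Mtrf1 was lower (-0.37 ± 0.06). Gatb was at 0.34 ± 0.20 and the elongation factor gene Gfm1 at 0.47 ± 0.16, neither called. Eef2 (-0.27 ± 0.05) and Eef1b2 (-0.21 ± 0.05) were lower among the cytosolic elongation factors. Of 77 mitochondrial ribosomal protein genes, 20 were higher (26%, against 9.96% of all genes) and 10 lower (13%, against 13.5%). Of 61 cytosolic ribosomal protein genes, 5 were higher (8.2%) and 18 lower (29.5%).

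Osteosarcoma lines were also set against osteoblasts. Here 2 of 18 cytosolic or dual synthetases were higher and 3 lower, and of 16 mitochondrial ones 2 were lower and 0 higher (4 higher at limma's unadjusted p under 0.05). Over all genes, 14.7% were higher and 12.7% lower, and the 12.5% of mitochondrial enzymes that were lower was near the latter share. Without line 3, 4 cytosolic or dual and 4 mitochondrial enzymes were higher. Medians were 0.02 over cytosolic, -0.01 over mitochondrial and -0.02 over all genes.

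Hars had the largest positive difference. Its lines (10.55 to 10.75) lay above all osteoblast cultures (9.65 to 10.14), by 0.83 ± 0.13 (adjusted p = 0.00190). In this comparison 3910 of all 19938 genes lay above without overlap. Kars was also higher in the lines than in osteoblasts (0.36 ± 0.06, adjusted p = 0.00321). Its level was thus in the order osteosarcoma below pre-osteoblasts and above osteoblasts, although the step from pre-osteoblasts to osteosarcoma was the one lost under most settings. Wars was lower in the lines (-0.90 ± 0.13, adjusted p = 0.00161), as were Sars (-0.59 ± 0.09, adjusted p = 0.00176) and Nars, at 12.35, 12.30 and 12.27 in lines 1, 2 and 3 (-0.21 ± 0.06, adjusted p = 0.0294). These 3 genes were also the ones that rose in osteoblasts and did not differ beyond the test between osteosarcoma and pre-osteoblasts. The call of Nars was lost when the third group was left out of the fit and with arrays centred on their medians, and without line 2 or 3 or osteoblast replicate 3. Eprs (0.02 ± 0.08), Gars (0.03 ± 0.06), Lars (0.03 ± 0.09) and Iars (0.07 ± 0.07) did not pass, and their 95% intervals lay within -0.17 to 0.24.

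Nars2 was at 9.04, 9.16 and 9.16 in osteoblasts, and the lines were lower by 1.87-fold (-0.90 ± 0.16, adjusted p = 0.00362). Ears2 was at 8.48, 8.59 and 8.73 in osteoblasts, and the lines were lower by 1.64-fold (-0.71 ± 0.07, adjusted p = 3.09e-04). Between osteoblasts and pre-osteoblasts these genes did not pass (0.07 ± 0.16 and 0.08 ± 0.07). For asparagine both enzymes were lower in the lines than in osteoblasts, Nars by -0.21 and Nars2 by -0.90, the only such pair among 16. Of the 30 amino acid response genes, 16 (53.3%, against 12.7% of all genes) were lower in the lines and 1 higher, with a median of -0.37. Ddit3 (-2.54 ± 0.25), Nupr1 (-2.33 ± 0.28), Ppp1r15a, a phosphatase subunit that acts on eIF2 (-1.79 ± 0.20), and the stress factor gene Atf3 (-1.73 ± 0.20) were lower, while Cebpb, a C/EBP protein that pairs with Atf4, was at -0.49 ± 0.20 (adjusted p = 0.111). Xpot was lower (-0.68 ± 0.07) and Dtd2 higher (0.56 ± 0.11), while Dtd1 was at -0.31 ± 0.13 and did not pass. All 3 complex scaffolds were higher in the lines, Aimp2 by 0.60 ± 0.16, Eef1e1 by 0.45 ± 0.13 and Aimp1 by 0.21 ± 0.06. In the amidotransferase, Gatb was higher (0.88 ± 0.20), Gatc lower (-0.28 ± 0.07) and Qrsl1 at -0.29 ± 0.13, not called. Among cytosolic elongation factors Eef2 was lower (-0.33 ± 0.05) and its kinase gene Eef2k at -0.22 ± 0.14, and 0 of 9 mitochondrial factors were called, with Gfm1 at 0.44 ± 0.16 (adjusted p = 0.0831). The unadjusted p of limma was under 0.05 for 3 of these 9. Of the 77 mitochondrial ribosomal protein genes, 27 (35.1%) were higher and 4 (5.19%) lower in the lines than in osteoblasts. Of the 61 cytosolic ribosomal protein genes, 1 (1.64%) was higher and 28 (45.9%) lower. The 11 markers of dividing cells were all higher in the lines than in osteoblasts, by a median of 2.36, and the 7 adipocyte markers were all lower. Their part in these differences was not tested.

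The lines differed among themselves more in mitochondrial synthetases than the cultures of each Kusa4b10 state did. The range over the 3 lines had a median of 0.43 over the 16 mitochondrial genes, against 0.15 over the osteoblast and 0.17 over the pre-osteoblast cultures. Over the 18 cytosolic or dual genes these medians were 0.28, 0.11 and 0.15, and over all genes 0.22, 0.16 and 0.17. Line 2 was the highest of the lines in 15 of 16 mitochondrial genes and line 3 the lowest in 13. Over all genes line 2 was highest in 7998 of 19938 and line 3 lowest in 6309. In the 77 mitochondrial ribosomal protein genes, line 2 was highest in 62 and line 3 lowest in 53. These are orders of 3 single arrays, described with no test. Yars2, the tyrosine enzyme, had the widest range, at 9.99, 10.55 and 9.50 in lines 1, 2 and 3, against 9.42, 9.39 and 9.48 in osteoblasts and 9.19, 9.57 and 9.23 in pre-osteoblasts. Its difference from pre-osteoblasts, 0.68 ± 0.23, was close to that of Tars but missed the threshold (adjusted p = 0.0695). Mars2, the methionine enzyme, was at 8.75, 9.38 and 8.68 in the lines, and Rars2 at 10.03, 10.21 and 9.41. Line 2 also had the lowest mean of the amino acid response genes among the lines (10.41, 10.03 and 10.50 in lines 1, 2 and 3) and the highest of the dividing-cell markers (11.42, 11.88 and 11.46), and the part of either was not tested. Without line 2, 7 mitochondrial enzymes were lower in osteosarcoma than in pre-osteoblasts in place of 4.

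Ears2, in contrast, varied little among the lines, at 7.84, 7.93 and 7.88. Cars2, the cysteine enzyme, had the narrowest range of group means of all members, at 9.06, 9.17 and 8.92 in the lines, 8.98, 9.06 and 9.14 in osteoblasts and 8.95, 9.17 and 9.03 in pre-osteoblasts. Yars, one of the 4 genes with TGATGNAA in its window, lay between 11.04 and 11.27 on all arrays. Mitochondrial genes had a median pairwise correlation of 0.41 over the 9 arrays, cytosolic and dual genes of 0.13, and pairs across the classes of -0.06. With group means removed these were 0.63, 0.10 and 0.08. The points share their arrays, and the values are descriptions. Grouping the cytosolic and dual genes by the catalytic fold of the enzyme, medians against pre-osteoblasts were 0.05 over 9 class I genes and 0.22 over 8 class II genes in osteoblasts, and -0.03 and 0.23 in osteosarcoma. Among 7 members of the multisynthetase complex, 3 were higher and 1 lower than in pre-osteoblasts in each of the other groups.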

How the data were processed

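RNA of 9 samples in 3 groups of 3 was measured on 1 array each. The deposited values are log2 signals that the authors summarised by RMA. The method and the mouse build mm9 are named in the submitters' processing notes, with no version of RMA. That step equalises the distribution of signals between arrays, so a shift shared by most genes would not be seen. Of 35556 probe sets, 21789 carried 1 gene symbol, 1621 several and 12146 none in the platform annotation. Probe sets with 1 symbol were used, and for the 999 genes with several, that with the highest mean over the 9 arrays, which left 19938 genes. With limma 3.58.1 (R 4.3.3), 3 group means were fitted over the 9 arrays (6 residual and 2.19 prior degrees of freedom). Every adjusted p is limma's, by Benjamini-Hochberg over all genes. Precision is limited by 3 arrays per group. Where samples share a replicate number, deviations from group means correlated at 0.15, 0.18 and 0.03 between osteoblasts and pre-osteoblasts, so the numbers were not taken as pairs. Osteosarcoma lines are numbered in the order of the records. Synthetases and related lists were chosen with earlier results of these data known. Per-array values are given for called synthetases with the widest range of group means (up to 10 cytosolic or dual and 8 mitochondrial) and the 2 narrowest, with Nars, Yars2, Mars2, Rars2, Psat1, Phgdh, the eIF2 kinases and Atf4 described as additions made after their values were seen. From each related list up to 4 called genes and 1 uncalled gene with the largest differences are named per comparison, and other genes of those lists were named after their values were seen. The lists of mitochondrial and cytosolic ribosomal proteins, and the alternatives run on the amino acid response counts, were added in the same way. Alternatives changed the filter on low levels, the probe set rule, the scaling, the fit and the arrays included.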

Additional observations from a re-analysis of the deposited data

How the results depend on the processing

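None of the 30 called synthetase differences changed sign under any alternative run. Filters on low levels, probe set averaging, renewed scaling, the fit and leaving out 1 array at a time were tried, and the cause of a lost or gained call was not tested. For osteoblasts against pre-osteoblasts, the 3 mitochondrial enzymes called lower became 5 when the third group was left out of the fit, 6 with the replicate block added, and 1 to 5 without 1 array. The 1 cytosolic or dual enzyme called lower ranged from 1 to 2 without 1 array. The 1 amino acid response gene called lower became 2 with means above the median, above the lower quartile or trend and robust settings, 3 with compared groups only, array weights or the replicate block, and 1 to 3 without 1 array. With the replicate block the calls of Iars (adjusted p = 0.0737) and Nars (adjusted p = 0.0675) were lost. For osteosarcoma against pre-osteoblasts, the 1 cytosolic or dual enzyme called lower, Kars, became 0 with means above the median, either scaling, compared groups only, array weights and trend and robust settings, and 0 to 1 without 1 array. Kars was called in none of the fits without 1 array, and the count of 1, without line 2, came from another gene. Mitochondrial enzymes called higher, 0 as reported, became 1 with means above the median, 2 with renewed quantile normalization and 0 to 1 without 1 array, those called lower 4 to 7, and amino acid response genes called lower 2 to 6. For osteosarcoma against osteoblasts, cytosolic or dual enzymes called higher ranged from 2 to 4 without 1 array, and mitochondrial ones from 0 to 4, with 1 under renewed quantile normalization and 3 with arrays centred. Centring arrays moved the higher share of calls in that comparison to 64.5% of genes called, against 53.8% as reported. For osteosarcoma against pre-osteoblasts that share was 51.7% with arrays centred and 51.3% with renewed quantile normalization, against 42.4% as reported. Differences that changed sign were uncalled and near 0. With arrays centred they were -0.01 (Cars2, osteoblasts against pre-osteoblasts), 0.01 (Farsa) and 0.02 (Wars) for osteosarcoma against pre-osteoblasts, and 0.06 (Cars2) and 0.03 (Farsa) for osteosarcoma against osteoblasts. With renewed quantile normalization they were 0.04 (Farsa, osteoblasts against pre-osteoblasts), and -0.03 (Eprs), -0.02 (Gars) and 0.00 (Lars) for osteosarcoma against osteoblasts. Without 1 array, osteoblasts against pre-osteoblasts ran from -0.04 to 0.07 (Cars2), -0.03 to 0.01 (Farsa) and -0.02 to 0.15 (Nars2). Osteosarcoma against pre-osteoblasts ran from -0.06 to 0.07 (Cars2), -0.20 to 0.13 (Farsa), -0.02 to 0.02 (Nars), -0.13 to 0.01 (Sars) and -0.14 to 0.11 (Wars). Osteosarcoma against osteoblasts ran from -0.07 to 0.06 (Cars2), -0.03 to 0.05 (Eprs), -0.19 to 0.14 (Farsa), -0.01 to 0.07 (Gars), -0.04 to 0.11 (Lars) and -0.15 to 0.01 (Sars2).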
